A study of Mus musculus with 6 samples.

Results

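The microRNA genes described here are the 82 rows of the gene count tables whose symbol starts with Mir and a digit and whose reads summed to 60 or more over the 6 libraries. They are 82 of 1169 such rows, of which 546 held 1 to 59 reads and 541 held none, among 24411 gene rows in all. Of the 82, 75 are single hairpin genes, called hairpin rows below, and 5 are longer host transcripts (Mir124a-1hg, Mir22hg, Mir99ahg, Mir17hg and Mir143hg). The remaining 2, Mir6236 and Mir6240, were set apart after their values were seen. Reads summed over all libraries chose the members, so these sums are a description and carry no test.

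The tissue came from mice at postnatal day 18, as 3 wild-type libraries (WT) and 3 libraries from mice without a large enhancer of Atoh7 (enhancer KO). Atoh7 is a transcription factor gene needed for retinal ganglion cells to form, and the series asks what its regulatory elements do. The source and tissue fields of the labels read retina, whereas the protocol and the design text name the developing cerebellum. The labels give no allele name, strain, sex, litter or animal, and do not say whether a library pools animals, so p-values measure only the spread between these 6 samples.

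MicroRNAs are short RNAs that pair with messenger RNAs through their seed and lower their stability or translation. Each is cut from a hairpin in a longer primary transcript, first by Drosha with Dgcr8 in the nucleus and then by Dicer1 in the cytoplasm. Many hairpins lie in introns of protein-coding genes or in long noncoding RNAs, and in neural tissue the miR-9, miR-124 and miR-7 families are among the best known. The libraries were made from total RNA with an RNA-seq kit whose size selection is not given in the sources used here, and mature microRNAs are shorter than the inserts such kits usually keep. A read on a hairpin row is therefore treated here as RNA covering the hairpin locus, not as a level of the mature microRNA.

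All 82 members matched a RefSeq gene and 73 had at least 1 mature sequence in RefSeq on build GRCm38.p6, giving 126 mature sequences with 116 different seeds. Those below are the ones the results turn on, written 5′ to 3′ with the seed, bases 2 to 8, in capitals. The first is encoded by 3 members, Mir9-1, Mir9-2 and Mir9-3, whose rows are compared with each other below.
miR-9-5p: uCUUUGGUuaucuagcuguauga
Next come 6 whose hairpins lie in introns of genes that fell less than the hairpin row, rose or did not pass the test.
miR-7a-5p: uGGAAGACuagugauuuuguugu
miR-1898: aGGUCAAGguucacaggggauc
miR-744-5p: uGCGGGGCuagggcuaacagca
miR-186-5p: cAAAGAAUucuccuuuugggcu
miR-338-3p: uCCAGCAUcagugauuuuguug
miR-135a-5p: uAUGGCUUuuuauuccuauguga
The next 8 belong to the imprinted Meg3, Rian and Mirg locus on chromosome 12, which holds 31 members.
miR-341-5p: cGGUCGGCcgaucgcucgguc
miR-1188-5p: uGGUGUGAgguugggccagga
miR-370-3p: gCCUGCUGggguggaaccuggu
miR-544-3p: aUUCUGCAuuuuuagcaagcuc
miR-136-5p: aCUCCAUUuguuuugaugaugg
miR-377-3p: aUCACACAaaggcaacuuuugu
miR-453: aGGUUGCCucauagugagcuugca
miR-496a-5p: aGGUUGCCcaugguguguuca
The last of these, miR-453 and miR-496a-5p, share a seed although their remaining bases differ. The next pair also shares a seed, with 1 copy in the host transcript Mir99ahg and the other in Spaca6.
miR-99a-5p: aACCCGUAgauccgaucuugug
miR-99b-5p: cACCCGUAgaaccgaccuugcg
The last 4 are a hairpin outside annotated genes that fell, and 3 in exons that did not pass the test.
miR-219a-5p: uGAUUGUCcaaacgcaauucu
miR-568: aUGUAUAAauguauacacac
miR-6516-5p: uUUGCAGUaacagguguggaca
miR-3061-5p: cAGUGGGCcgugaaagguagcc

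Reads in genes ranged from 22812075 to 33076111 in WT and from 36849747 to 40858310 in enhancer KO. Reads that aligned to 1 place outside annotated exons made up 32.1%, 34.1% and 31.1% of all WT reads and 17.3%, 16.8% and 18.2% of all enhancer KO reads (32.4% ± 1.56 against 17.4% ± 0.735, SD, n = 3 each; exact two-sided permutation p = 0.1, the smallest that 3 libraries against 3 can give). The groups did not overlap in this share. Granule neuron markers of the cerebellum summed to 2662 to 3294 counts per 1000000 gene reads (CPM) in WT and 1764 to 2174 in enhancer KO, and all 12 of 12 fell. Purkinje cell markers summed to 5080 to 6092 CPM in WT and 6979 to 7474 in enhancer KO, with 7 of 10 higher, whereas 10 photoreceptor markers together reached 2.13 CPM at most, with 1 at 0 in every library. Markers of cerebellum were thus abundant and those of photoreceptors nearly absent, against the label retina. Endothelial markers had 5 of 8 lower (170.0 to 193.1 CPM in WT and 128.1 to 150.9 in enhancer KO), microglial markers 4 of 8 higher (244 to 256 and 264 to 317) and astroglial markers 3 of 8 higher (6631 to 6719 and 7714 to 8153). Midbrain markers had 2 of 8 higher. Choroid plexus markers had 0 of 8 lower or higher. Their sums differed widely between libraries of the same group (1194 to 1867 CPM in WT and 815 to 2034 in enhancer KO). Among all 15846 genes tested, 17.9% fell and 13.4% rose (edgeR adjusted p under 0.05). The part of the shares of these cell types in the results below was not tested. WT replicate 1 alone held many Xist reads (34185, against 28 to 50 elsewhere) and no Ddx3y read (1916 to 4405 elsewhere), and WT replicate 2 had 12.9% of its gene reads on the ribosomal RNA gene Rn45s, against 1.51% to 3.02% elsewhere. Atoh7 itself held 63, 42 and 72 reads in WT and 28, 33 and 29 in enhancer KO, and fell by 1.41 ± 0.205 on the log2 scale (SE; edgeR adjusted p = 0.000353).

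Most microRNA rows with enough reads to test were lower in enhancer KO, and none passed as higher in the edgeR fit. Of the 77 members that passed the low-count filter, 50 fell and 0 rose by edgeR's quasi-likelihood test at an adjusted p under 0.05, where 17.9% of all 15846 genes tested fell and 13.4% rose. The median log2 fold change was -1.45 over these 77 and 0.0006 over all genes tested. More than 2-fold decreases made up 47 of the 50, a size of decrease called in 2.17% of all genes. The 3 enhancer KO values were all below the 3 WT values for 53 of the 77, against 24.3% of all genes, and all above for 2, against 20.5%. At an unadjusted p under 0.05 there were 55 lower and 1 higher, Mir6516. DESeq2 called 42 lower and 1 higher, again Mir6516 (15.2% and 12.7% of all genes), and edgeR with a minimum fold of 1.2 called 41 and 0 (5.73% and 0.524%). With limma-voom there were 51 and 0. No share of all genes was computed for limma-voom or for the unadjusted p, so those counts have nothing to be set against.

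These counts cover rows near the filter, which favours rows that are high in either group. Of the 77, 36 passed it in every library, and of these 19 fell, 0 rose and the median was -0.99. Another 35 passed in every WT library but not in every enhancer KO library, and of these 31 fell, 0 rose and the median was -1.71. These 35 entered through the group in which they were higher, so their calls and median are partly set by the filter. The other way round there was 1 row, and 5 passed in a mixture, with 0 called in either case. With a filter of 10 reads in total, all 82 were tested, and 54 fell and 0 rose, where 15.8% of the genes then tested fell and 12.6% rose. The 5 left out by the first filter were Mir337, Mir667, Mir300, Mir9-3 and Mir3072, with 62 to 85 reads each over the 6 libraries. Of the 50 that fell, 39 kept the call without any 1 library. The other 11 lost it in 1 to 5 of the 6 fits, with edgeR adjusted p between 0.0504 and 0.152. They were Mir1894, Mir668, Mir540, Mir434, Mir99b, Mir7662, Mir7115, Mir99a, Mir376a, Mir1931 and Mir1955. Without WT replicate 1, the library with Xist reads, 42 fell and 0 rose, where 16.9% and 13.8% of all genes did.

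**Figure D1:**
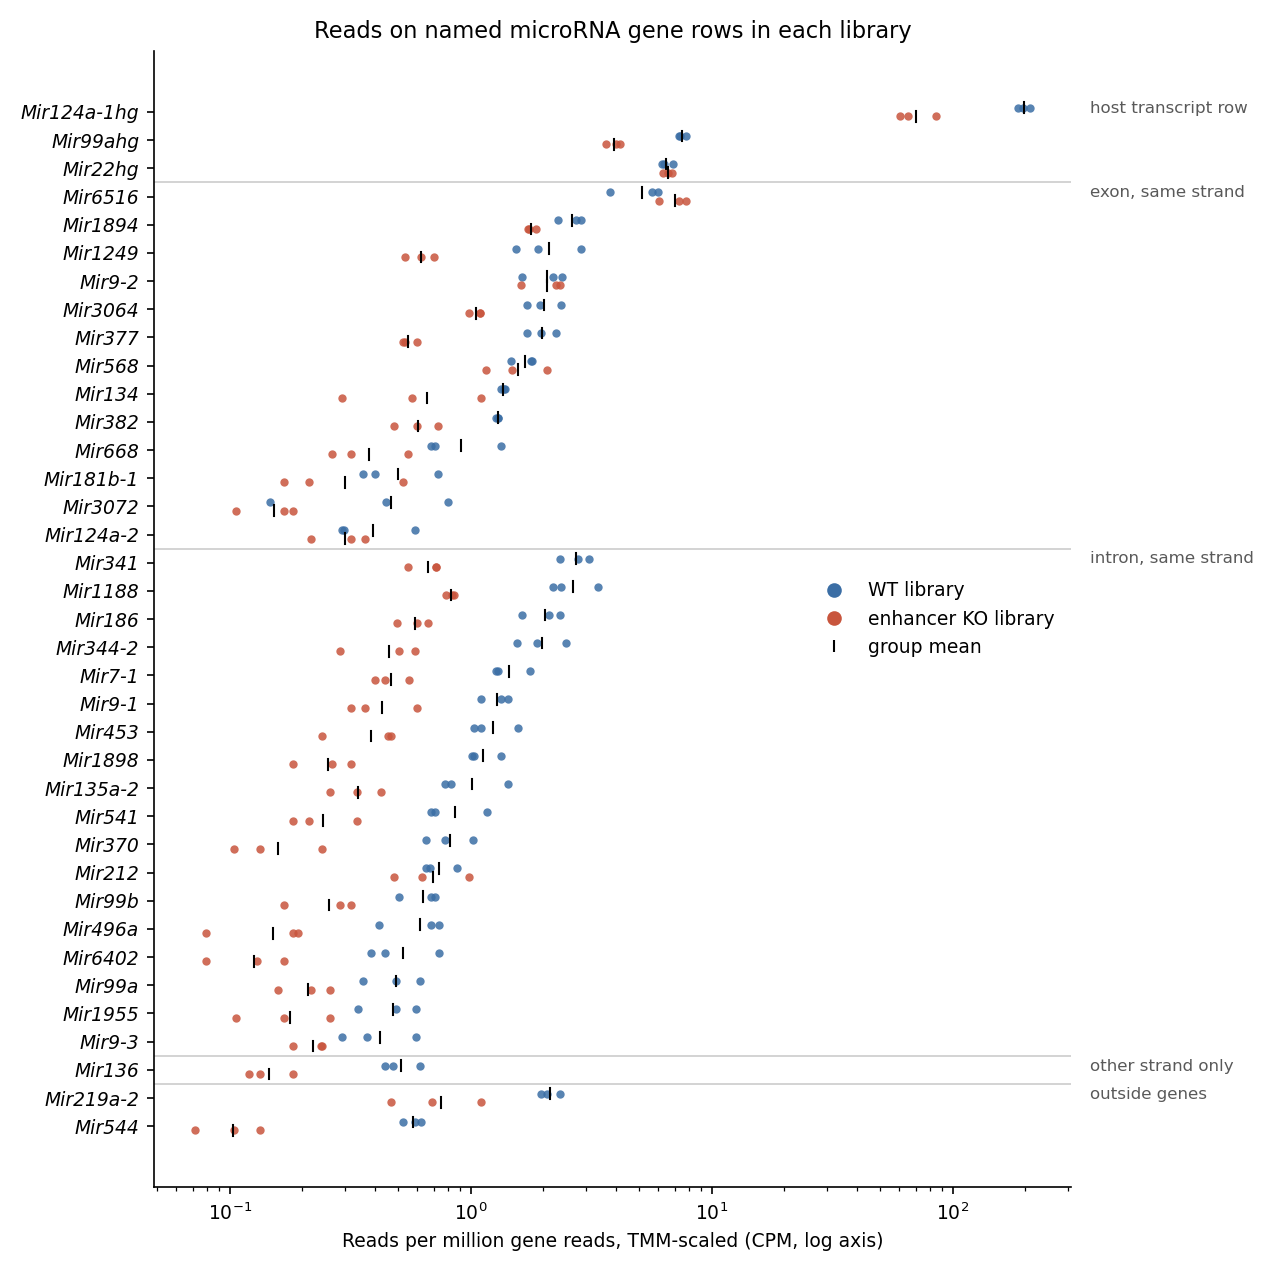
Reads per 1000000 gene reads, TMM-scaled (CPM, log axis), of the members named by rule, 1 row per gene, grouped by genomic context. Blue points are the 3 WT libraries, red points the 3 enhancer KO libraries and black ticks group means; a library with no read has no point. The red points of nearly all intron rows lie to the left of the blue ones, while those of Mir22hg, Mir9-2 and Mir568 lie among them.

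The host transcripts did not move as 1 group, with 3 of 5 lower. Mir124a-1hg (chr14:64587331-64593961, plus strand), the noncoding host of a hairpin of miR-124, the most abundant microRNA of neurons, held 6038, 4265 and 6636 reads in WT and 2442, 2311 and 3540 in enhancer KO. Scaled to library size this was 197 ± 11.1 against 70.0 ± 13.1 CPM (SD, n = 3), with the groups far apart. It fell by 1.49 ± 0.140 on the log2 scale (edgeR adjusted p = 0.000957). With WT replicate 1 as the only WT library it was at -1.39, near the value with all libraries, and was not called (edgeR adjusted p = 0.0827). In that fit the spread comes from the 3 enhancer KO libraries alone, and 1 WT library gives no spread of its own. Mir99ahg, host of miR-99a, let-7c and miR-125b-2, fell from 7.51 ± 0.298 to 3.92 ± 0.278 CPM (edgeR adjusted p = 9.77e-05), with no overlap. Mir17hg, host of the miR-17-92 cluster known from dividing progenitors, held 34, 27 and 43 reads in WT and 18, 14 and 20 in enhancer KO and fell by 1.44 ± 0.262 (edgeR adjusted p = 0.00148). Mir22hg, host of miR-22, held 6.88, 6.20 and 6.30 CPM in WT and 6.25, 6.84 and 6.57 in enhancer KO, so the groups overlapped (log2 fold change 0.02 ± 0.105, edgeR adjusted p = 0.920). Mir143hg, host of the smooth muscle microRNAs miR-143 and miR-145, was at -0.11 ± 0.314 (edgeR adjusted p = 0.819). A wider list of 26 long noncoding hosts, which includes these 5 and a few microRNA rows, had 17 members tested. Of these, 11 fell and 0 rose with a median of -0.89, where 17.9% of all genes tested fell and 13.4% rose. Mir124a-1hg, Mir99ahg and Mir17hg are among the 11, so this count is not separate from that of the members. Examples outside the members are Ftx (23.8 ± 2.24 to 6.47 ± 0.309 CPM), the X-linked host of miR-374 and miR-421, and A330023F24Rik (50.4 ± 5.02 to 15.3 ± 1.81 CPM), the host of the miR-29b-2 and miR-29c pair. They fell by 1.88 and 1.72 on the log2 scale (edgeR adjusted p = 1.07e-07 and 1.62e-06). The share of reads outside annotated exons was lower in the same libraries, and its part in these results was not tested.

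The 3 genes that encode miR-9, a microRNA that acts in neural progenitors and young neurons, make the same mature product, and 1 of the 2 that were tested fell. Mir9-2 (chr13:83738814-83738885, plus strand), inside an exon of the noncoding C130071C03Rik, held 53, 49 and 74 reads in WT and 61, 90 and 94 in enhancer KO, and its CPM values overlapped (2.07 ± 0.393 against 2.07 ± 0.392; log2 fold change 0.02 ± 0.212, edgeR adjusted p = 0.963). Mir9-1 (chr3:88215598-88215686, plus strand), in an intron of Gm3764, held 43, 29 and 37 reads in WT and 12, 14 and 25 in enhancer KO. Its groups did not overlap in reads or CPM, and it fell by 1.55 ± 0.293 (edgeR adjusted p = 0.00195). Mir9-3 (chr7:79505264-79505353, plus strand) held 12, 6 and 20 reads in WT and 9, 7 and 10 in enhancer KO, too few for the test. Its CPM values were nonetheless lower in every enhancer KO library (0.418 ± 0.155 against 0.220 ± 0.0332, SD, n = 3), and with a filter of 10 reads it was at -0.95 ± 0.415 and not called (edgeR adjusted p = 0.107). Within each library, Mir9-1 had 811, 592 and 500 reads per 1000 reads of Mir9-2 in WT and 197, 156 and 266 in enhancer KO. This ratio does not depend on the library size, and every enhancer KO value lay below every WT value (exact two-sided permutation p = 0.1, and 0.1 after adjustment over the 5 ratios computed, all chosen after their values were seen). Mir3093, which lies just before Mir9-1 on the same strand, held 61, 32 and 71 reads against 21, 24 and 43, without overlap in CPM, and fell by 1.33 ± 0.262 (edgeR adjusted p = 0.00255). Reads of the host row of Mir9-2, C130071C03Rik, fell by 0.54 (edgeR adjusted p = 0.00213), and those of Mir9-3hg were at 0.05 (0.582).

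Hairpins in introns were lower nearly throughout, also where the gene around them was not. Of 26 hairpin rows in an intron on the strand of the gene, 25 were tested, and 22 fell and 0 rose with a median of -1.69. For 21 of them the host gene was tested too, and in all 21 the hairpin row lay below its host, with a median of -1.70 for the rows and -0.28 for their 17 hosts. Of those hosts 11 fell and 1, Map2k4, rose. Among all genes tested, 17.9% fell and 13.4% rose. Over all members, rows past the low-count filter in every WT but not every enhancer KO library had a median of -1.71. Rows past it in every library were at -0.99. The intron rows were not split in this way, so the part of the filter in their calls, median and place below the hosts was not tested. A read from unspliced host RNA and a read from a microRNA precursor cannot be told apart in these counts. The share of reads outside annotated exons, which include introns, was 17.4% in enhancer KO against 32.4% in WT, and its part in these decreases was not tested.

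Mir7-1 (chr13:58392779-58392886, minus strand) lies in an intron of Hnrnpk, which encodes an RNA-binding protein, and gives rise to miR-7, a microRNA of neurons and endocrine cells. It held 42, 36 and 43 reads in WT and 15, 17 and 23 in enhancer KO, all 3 below WT. It fell by 1.60 ± 0.264 (edgeR adjusted p = 0.000827), while Hnrnpk was at 0.03 (0.684). Per 1000 reads of Hnrnpk, Mir7-1 had 4.22 ± 0.709 reads in WT and 1.34 ± 0.236 in enhancer KO (SD, n = 3; exact two-sided permutation p = 0.1). Mir1898 (chr15:12171492-12171574, plus strand), in Zfr, which encodes a zinc finger RNA-binding protein, held 43, 21 and 34 reads against 12, 7 and 11. It fell by 2.13 ± 0.309 (edgeR adjusted p = 0.000352), and Zfr was at 0.01 (0.913). Mir744 (chr11:65734733-65734832, minus strand), in Map2k4, a kinase of the stress-activated pathway, held 41, 14 and 39 reads against 15, 8 and 15, so that the lowest WT library lay below 2 enhancer KO libraries in reads, though not in CPM. It fell by 1.71 ± 0.337 (edgeR adjusted p = 0.00248), and Map2k4 rose by 0.16 (0.0125). Per 1000 host reads, Mir1898 went from 4.13 ± 0.644 to 0.932 ± 0.238 and Mir744 from 6.37 ± 1.89 to 1.77 ± 0.536, and neither pair of groups overlapped (exact two-sided permutation p = 0.1 each). The ratios to Hnrnpk, Zfr and Map2k4 are among the 5 chosen after their values were seen. Their lack of overlap and p-values are therefore a description and no separate test of row against host.

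Among the other intron rows with a tested host, the host values ran from 0.09 (Elavl2, host of Mir6402) to -1.74. Mir6402 fell by 2.02, and Mir1192, in Klf9 with that host at 0.03, fell by 1.70. Mir186 (chr3:157544279-157544349, plus strand) held 53, 48 and 71 reads in WT and 25, 19 and 25 in enhancer KO and fell by 1.77 ± 0.239, against a fall of 0.56 in its host Zranb2, a splicing factor gene (edgeR adjusted p = 0.000216 and 3.01e-05). Mir338 (chr11:120014765-120014862, minus strand), known from oligodendrocyte maturation and hosted by the kinase gene Aatk, held 22, 14 and 26 reads against 12, 8 and 12 and fell by 1.38 ± 0.316, with Aatk at -0.19 (edgeR adjusted p = 0.00595 and 0.00959). Both rows had every enhancer KO library below WT in CPM. Mir135a-2 (chr10:92072086-92072185, minus strand), in the long noncoding RNA Rmst, fell by 1.59 ± 0.337 with Rmst at -0.06 (edgeR adjusted p = 0.00395 and 0.769). At the other end, Mir344-2 (chr7:61940027-61940106, minus strand), with 61, 32 and 84 reads against 22, 11 and 21, fell by 2.12 ± 0.291 inside the noncoding A330076H08Rik, which fell by 1.74 (edgeR adjusted p = 0.000235 and 4.19e-05). Row and host differed by little more than the SE of the row in this case. The rows of the pair with a shared seed were also near their hosts. Mir99a fell by 1.18 ± 0.389 and Mir99b by 1.28 ± 0.357 (edgeR adjusted p = 0.0369 and 0.0171), with Mir99ahg and Spaca6 down by 0.94 and 1.13. Both calls were lost without WT replicate 1 (edgeR adjusted p = 0.152 and 0.0558), and Mir99a also lost it without WT replicate 2 (0.0738) and without each enhancer KO replicate (0.0605 at the lowest), and Mir99b without enhancer KO replicate 3 (0.0569). The 3 tested intron rows that were not called were Mir212, Mir7666 and Mir6392. Mir212 (chr11:75173388-75173478, plus strand), of the activity-dependent miR-132 and miR-212 pair, held 22, 18 and 22 reads in WT and 18, 24 and 41 in enhancer KO, with overlap in CPM and a log2 fold change of -0.04 ± 0.319 (edgeR adjusted p = 0.935). The sign of that value turned under some other settings.

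**Figure D2:**
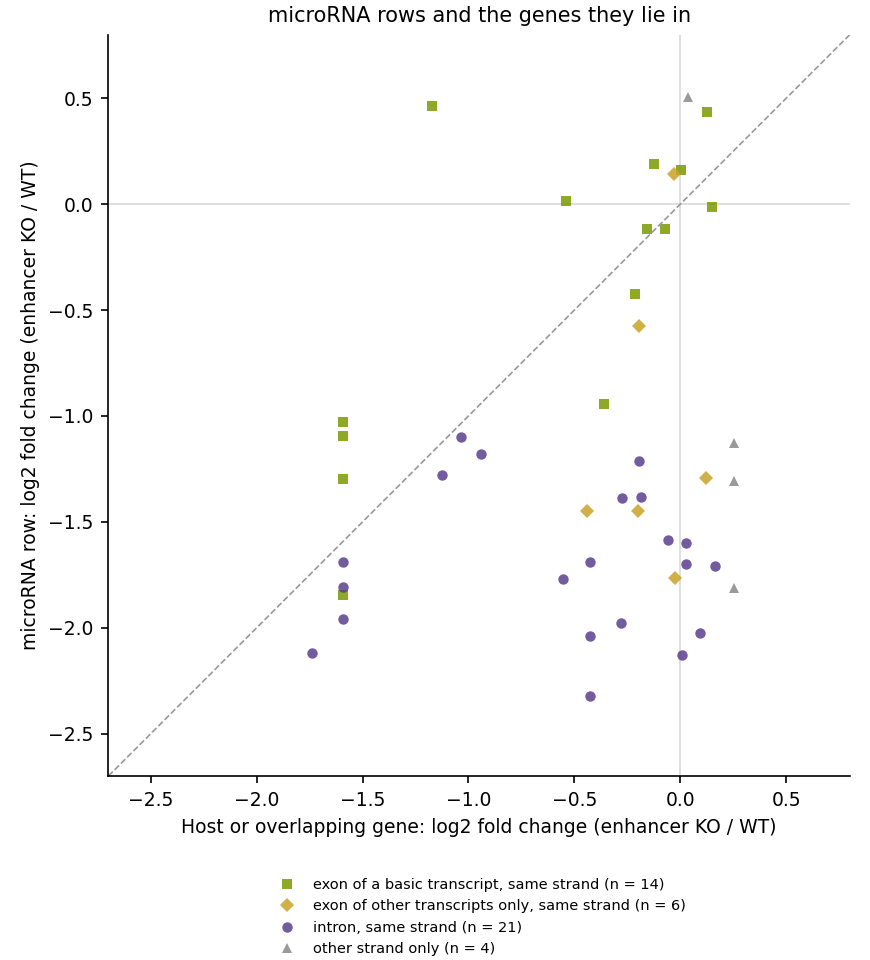
Each point is a hairpin row with a tested host or overlapping gene, with the log2 fold change of that gene on the horizontal axis and of the row on the vertical axis (both enhancer KO over WT). The dashed line marks equal values; all 21 intron points (circles) lie below it, while exon points of basic transcripts (squares) lie on both sides.

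Hairpins in exons included more rows that did not pass. Among 24 rows that overlap an exon on the same strand, a split made after the values were seen put 17 in exons of transcripts that GENCODE tags as basic, its set of well-supported models. All 17 were tested, and 4 fell (Mir3064, Mir377, Mir382 and Mir668) and 0 rose, with a median of -0.12, where 17.9% of all genes fell and 13.4% rose. The basic-exon rows were thus called lower at a share near that of all genes. Of the 7 in exons of other transcripts only, 6 were tested and 5 fell, with a median of -1.37. Of the 4 that fell in basic exons, 3 lie in Mirg. Outside the Meg3, Rian and Mirg locus, 1 of 13 tested basic-exon rows and 16 of 19 tested intron rows fell, with medians of -0.10 and -1.55. No test of the difference between these classes was made. Nor were the classes split by the libraries in which their rows passed the low-count filter, so its part in these counts and medians was not tested. STAR assigns a read that overlaps exons of more than 1 gene to neither. A read on both hairpin and host exon thus counts to the row only where the annotation used for counting lacks that exon. That annotation is not given in the sources used here. Rows were classed by any overlap with an exon, so reads on a part of the hairpin outside it can also count.

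Mir568 (chr16:43640655-43640737, plus strand), in an exon of the transcription factor gene Zbtb20, held 58, 30 and 60 reads in WT and 78, 57 and 48 in enhancer KO. Its CPM values overlapped, at 1.68 ± 0.183 and 1.57 ± 0.467 (log2 fold change -0.12 ± 0.237, edgeR adjusted p = 0.753). Mir3061 (chr11:52126746-52126836, plus strand), in the phosphatase subunit gene Ppp2ca, held 20, 11 and 24 reads against 23, 33 and 27 and was at 0.16 ± 0.278 (edgeR adjusted p = 0.706). These rows were near their hosts, Zbtb20 at -0.16 and Ppp2ca at 0.01. Mir6516 (chr11:117077348-117077457, plus strand), in the small RNA host gene Snhg20, had 3.79, 5.62 and 5.98 CPM in WT and 6.01, 7.83 and 7.29 in enhancer KO. All 3 enhancer KO libraries lay above WT, the lowest by little, and the log2 fold change of 0.46 ± 0.170 missed the threshold (edgeR adjusted p = 0.0586). Snhg20 itself fell by 1.17 (edgeR adjusted p = 6.96e-06), so row and host had opposite signs. Without WT replicate 3 or enhancer KO replicate 1, Mir6516 passed (edgeR adjusted p = 0.0399 and 0.0365), as it did in DESeq2 (0.0398). It did not pass without WT replicate 1 or 2 (edgeR adjusted p = 0.162 and 0.0753) or without enhancer KO replicate 2 or 3 (0.183 and 0.118). Nor did it with a minimum fold of 1.2 (edgeR adjusted p = 0.395). Mir1894, in Ppp1r10, a phosphatase regulator gene, held 89, 47 and 97 reads against 65, 67 and 78 and fell by 0.58 ± 0.171 (edgeR adjusted p = 0.0230). That call was among those lost when single libraries were left out (edgeR adjusted p = 0.0538, 0.0918, 0.0730 and 0.0682 without WT replicates 1 and 3 and enhancer KO replicates 1 and 2).

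The largest block of members lies on chromosome 12 between Meg3 and the end of Mirg, a region imprinted so that its noncoding RNAs and hairpins are made from the maternal copy. It holds 31 hairpin rows, all on the plus strand over about the span from Mir493 (chr12:109580233-109580315) to Mir3072 (chr12:109747878-109747960). Of the 27 tested, 23 fell, 0 rose and 4 were not called (Mir493, Mir432, Mir1193 and Mir134), with a median of -1.81 and a range from -2.53 to -1.03. For 28 of the 31, the CPM values of enhancer KO were all below those of WT, as for 24.3% of all genes tested. Of all genes tested, 17.9% fell and 13.4% rose. The other 44 hairpin rows, elsewhere in the genome, had 43 tested and 24 lower, with a median of -1.18. These include intron rows (16 of 19 tested lower, median -1.55) and rows in exons of basic transcripts (1 of 13 lower, median -0.10). Over all members, rows past the low-count filter in every WT but not every enhancer KO library had a median of -1.71. Rows past it in every library were at -0.99. The locus and the other rows were not split in this way. The part of the filter and of genomic context in the medians of -1.81 and -1.18 was not tested. The 31 rows held 1136, 501 and 903 reads in WT and 302, 306 and 422 in enhancer KO, although the enhancer KO libraries had more gene reads. Per 1000000 gene reads, the mean sum was 68.5% lower in enhancer KO, with no overlap (28.3 ± 6.87 against 8.90 ± 1.24, SD, n = 3; exact two-sided permutation p = 0.1). Per 1000000 reads outside annotated exons it was 24.4% lower, and the groups overlapped (42.7 ± 16.8 against 32.3 ± 2.66, SD, n = 3; exact two-sided permutation p = 0.4). The part of the lower share of reads outside exons was not tested here either. Some neighbours in the locus share a transcript, so they are not independent of each other.

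The long noncoding RNAs of the locus were lower by unequal amounts. Meg3, a growth-restraining RNA, held 2120, 1520 and 1500 CPM in WT and 508, 486 and 589 in enhancer KO and fell by 1.70 (edgeR adjusted p = 0.00209). Rian, which also hosts small nucleolar RNAs, held 540, 479 and 453 CPM in WT and 394, 341 and 362 in enhancer KO and fell by 0.42 (edgeR adjusted p = 0.00144). Mirg fell by 1.59 (edgeR adjusted p = 1.83e-06), and Rtl1, the paternally expressed gene on the other strand, was at 0.25 (0.474). No group of these 3 noncoding RNAs overlapped, while Rtl1 did.

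Mir341 (chr12:109611500-109611595) and Mir1188 (chr12:109611822-109611941) lie next to each other in an intron of Rian and had the most reads in the locus. Mir341 held 100, 57 and 79 reads in WT and 27, 21 and 30 in enhancer KO, and fell by 2.04 ± 0.216 (edgeR adjusted p = 3.75e-05). Mir1188 held 109, 45 and 80 reads in WT and 32, 32 and 33 in enhancer KO, and fell by 1.69 ± 0.221 (edgeR adjusted p = 0.000171). Mir370, the third hairpin row in Rian, held 33, 16 and 22 reads against 5, 4 and 10 and fell by 2.32 ± 0.388 (edgeR adjusted p = 0.000889). All 3 had enhancer KO libraries below WT and lay below the value of Rian. Between Rian and Mirg, outside annotated genes, Mir544 (chr12:109729325-109729402) held 17, 12 and 21 reads against 5, 4 and 3 and fell by 2.46 ± 0.403 (edgeR adjusted p = 0.000788). Mir136 (chr12:109595327-109595388), one of the hairpins antisense to Rtl1 that can direct cutting of its messenger RNA, held 20, 9 and 16 reads against 5, 7 and 5 and fell by 1.81 ± 0.391 (edgeR adjusted p = 0.00427). Its groups did not overlap, and the gene on the other strand, Rtl1, did not pass.

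Within Mirg, as GENCODE annotates it with exons that start before the RefSeq span, 6 of the rows fell and Mir134 did not pass. Mir377 (chr12:109740510-109740577) held 73, 35 and 66 reads in WT and 20, 20 and 25 in enhancer KO and fell by 1.84 ± 0.226 (edgeR adjusted p = 0.000105). Mir453 and Mir496a, which share the seed shown above, had log2 fold changes of -1.69 ± 0.316 and -1.96 ± 0.427 (edgeR adjusted p = 0.00182 and 0.00453). These values differ from that of Mirg by about their SE or less. Mir134 (chr12:109734139-109734209), which acts on dendritic spine size through the kinase Limk1, held 43, 28 and 47 reads in WT and 11, 22 and 46 in enhancer KO. Enhancer KO replicate 3 stood nearest to WT, at 1.10 against 1.33 to 1.39 CPM, and the other enhancer KO libraries were at 0.292 and 0.572. Mir134 was at -1.03 ± 0.369 (edgeR adjusted p = 0.0545). Without enhancer KO replicate 3, left out here because it was nearest to WT, Mir134 was at -1.64 (edgeR adjusted p = 0.00229). That choice favours a larger fall, so the second value is only a description. Its neighbour Mir382 held 42, 26 and 44 reads against 18, 28 and 25 and fell by 1.09 ± 0.246 (edgeR adjusted p = 0.00547).

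**Figure D3:**
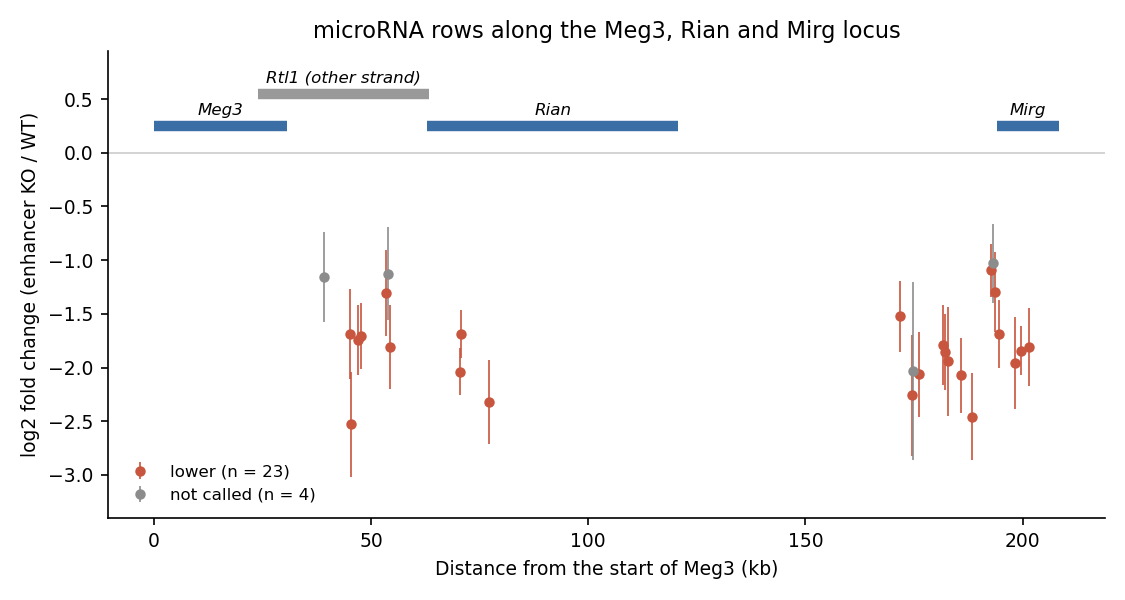
Log2 fold change (enhancer KO over WT, bars SE) of the 27 tested hairpin rows against distance in kilobases from the start of Meg3, with the RefSeq spans of Meg3, Rian, Mirg and Rtl1 drawn as bars at their own scale on the same axis. Every point lies below 0, between -2.53 and -1.03, and grey points are rows that did not pass the test.

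Rows outside annotated genes were mostly lower, but those outside the chromosome 12 locus were mixed. Of 21 hairpin rows outside genes, 18 were tested and 14 fell, with a median of -1.77, where 17.9% of all genes tested fell. All but 4 of the 21 are in the locus on chromosome 12. Those 4 were tested and 2 fell, with a median of -0.70, while Mir682 and Mir8091 were at 0.08 and 0.07 with overlapping groups. Mir219a-2 (chr2:29845631-29845727, minus strand), a source of miR-219, which promotes the maturation of oligodendrocytes, held 67, 48 and 66 reads in WT and 26, 18 and 46 in enhancer KO. It fell by 1.47 ± 0.276 (edgeR adjusted p = 0.00190), and enhancer KO replicate 3 was nearest to WT without reaching it (1.10 against 1.95 to 2.34 CPM). Markers of oligodendrocytes summed to 30757 to 34215 CPM in WT and 33711 to 37127 in enhancer KO, with 1 of 10 lower and 1 higher. In bulk RNA, fewer cells of a type and less RNA per cell cannot be told apart. Of the 4 rows that lie only opposite a gene, 2 fell, and Mir703 was at 0.51, the highest value of any tested member, without being called. Mir1249 (chr15:84951526-84951623, minus strand), in an exon of a less supported transcript of 5031439G07Rik, held 93, 39 and 52 reads against 20, 27 and 26 and fell by 1.76 ± 0.276 with its host at -0.03 (edgeR adjusted p = 0.000576 and 0.679).

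Mir6236 and Mir6240 were dominated by WT replicate 2. Mir6236 held 329, 111111 and 619 reads in WT and 193, 296 and 408 in enhancer KO, so that 1 library held nearly all of its reads. It was at -7.91 ± 3.30 (edgeR adjusted p = 0.160), and without WT replicate 2 at -0.90 (0.214). Mir6240 held 11, 329 and 23 reads in WT and 5, 16 and 26 in enhancer KO, and was at -3.72 ± 1.97 with that library and -0.36 without it (edgeR adjusted p = 0.246 and 0.691). The same library had the high share of Rn45s reads. Per 10000 Rn45s reads, Mir6236 had 377 in that library and 3.12 to 6.21 in each of the others, so it stood apart by more than the ribosomal RNA did.

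**Figure D4:**
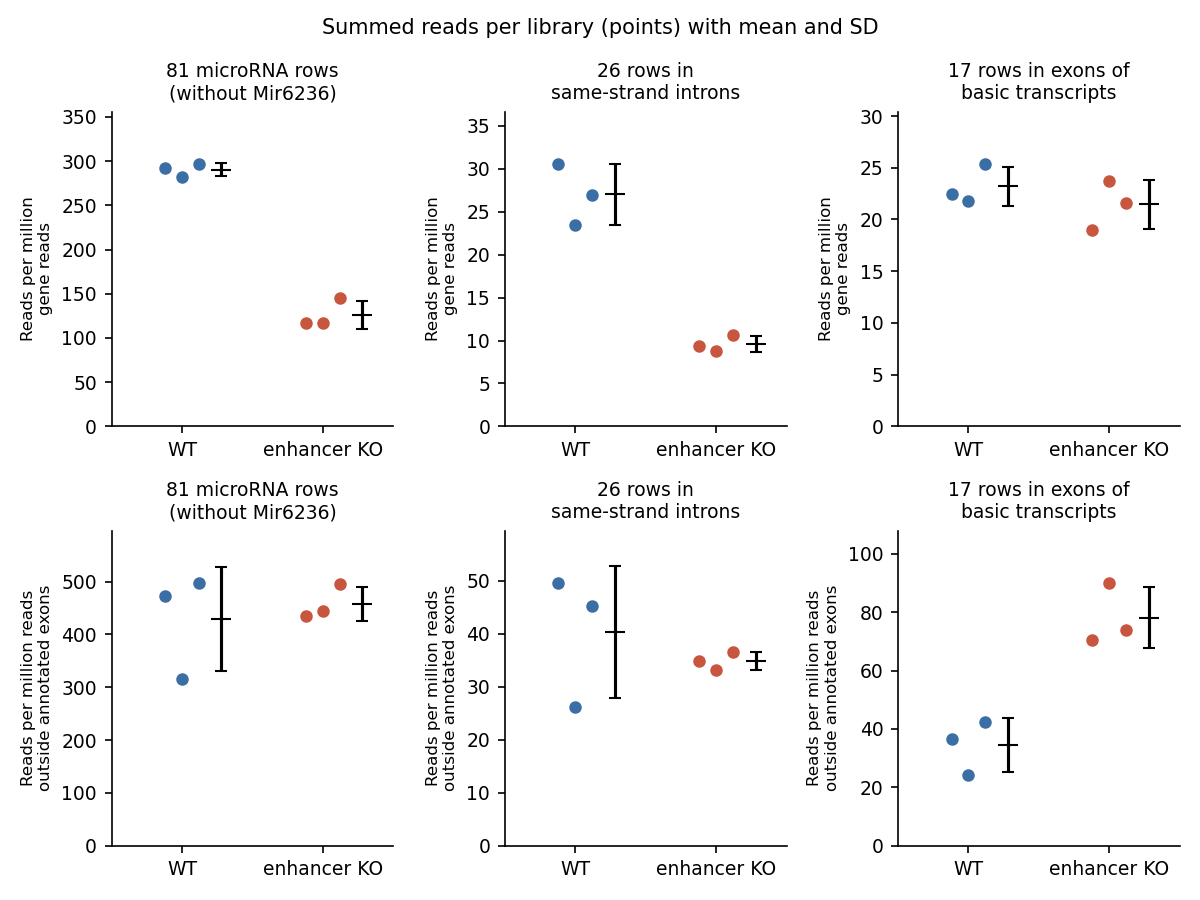
Summed reads of the members without Mir6236, the hairpin rows in introns and those in exons of basic transcripts, in each library (blue WT, red enhancer KO; black marks are mean and SD), per 1000000 gene reads in the upper panels and per 1000000 reads outside annotated exons in the lower ones, each axis starting at 0. In the upper panels the first 2 sums are lower in every enhancer KO library; in the lower panels the groups overlap for these, and the exon sum is higher in every enhancer KO library.

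Set against the reads outside annotated exons, the sums gave a different order. Without Mir6236, the members summed to 292, 283 and 297 reads per 1000000 gene reads in WT and 117, 117 and 145 in enhancer KO, which did not overlap and is 56.5% lower (exact two-sided permutation p = 0.1). Per 1000000 reads outside annotated exons, the same reads were 474, 316 and 497 in WT and 435, 445 and 495 in enhancer KO, and the groups overlapped, with WT replicate 2 lowest (429 ± 98.7 against 458 ± 32.2, SD, n = 3; exact two-sided permutation p = 0.9). The intron rows held 975, 536 and 893 reads in WT and 346, 327 and 436 in enhancer KO. Their sum was 64.5% lower per 1000000 gene reads, and it was 40.3 ± 12.4 against 34.8 ± 1.66 per 1000000 reads outside exons (exact two-sided permutation p = 0.1 and 0.4). For rows in exons of basic transcripts the order was turned, with 23.2 ± 1.90 against 21.5 ± 2.35 per 1000000 gene reads and 34.4 ± 9.25 against 78.2 ± 10.3 per 1000000 reads outside exons (exact two-sided permutation p = 0.4 and 0.1). With that count as the library size of the edgeR fit, the median of all genes moved to 1.36 and that of the members to -0.10, and 1 member fell and 19 rose, where 0.0947% of all genes fell and 94.1% rose. Per 1000000 gene reads, the sum of the hairpin rows was lower in the same 3 libraries as the share of reads outside exons, while the sum of the basic-exon rows overlapped. The part of that share in each decrease was not tested.

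Of the genes of the microRNA pathway, most of those tested were also lower, by small amounts. Of 40 symbols listed for processing and effector functions, 33 were in the tables and 32 tested, and 20 fell and 2 rose, with a median of -0.26, where 17.9% of all genes fell and 13.4% rose. Dgcr8, the partner of Drosha, held 40.1, 37.8 and 41.2 CPM in WT and 26.6, 27.4 and 26.7 in enhancer KO and fell by 0.56 ± 0.0548 (edgeR adjusted p = 2.05e-05). Drosha was at -0.07 ± 0.0400 (edgeR adjusted p = 0.218), although its enhancer KO values lay just below WT. Dgcr8 messenger RNA itself carries hairpins that the Drosha complex cuts. Ddx17, a helicase of that complex, fell from 449 ± 7.92 to 283 ± 2.87 CPM (log2 fold change -0.67, edgeR adjusted p = 7.19e-07), and its relative Ddx5 by 0.36 (0.000108). Dicer1 fell by 0.26 and Xpo5, the exporter of hairpins, by 0.18 (edgeR adjusted p = 0.000441 and 0.0135). Of the Argonaute genes, Ago3 fell by 0.29 (edgeR adjusted p = 0.000568), while Ago1 was at 0.09 (0.167), Ago2 at 0.10 (0.181) and Ago4 at -0.27 (0.0528). Tnrc6a, an Argonaute partner, fell by 0.44 and the uridylyl transferase gene Zcchc11 by 0.42 (edgeR adjusted p = 2.12e-05 and 2.75e-05). Hnrnpa1, an RNA-binding protein that helps process some hairpins, fell by 1.54, from 5.53 ± 0.725 to 1.91 ± 0.200 CPM (edgeR adjusted p = 2.82e-05). It has many processed copies in the genome, so a level from reads aligned to 1 place is uncertain. Ran, the GTPase that works with Xpo5, rose by 0.31 and Ncbp2, of the cap-binding complex, by 0.24 (edgeR adjusted p = 0.000129 and 0.0126). With a minimum fold of 1.2, 6 of the 22 calls were left, all of them lower, where 5.73% of all genes were called lower and 0.524% higher.

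**Figure D5:**
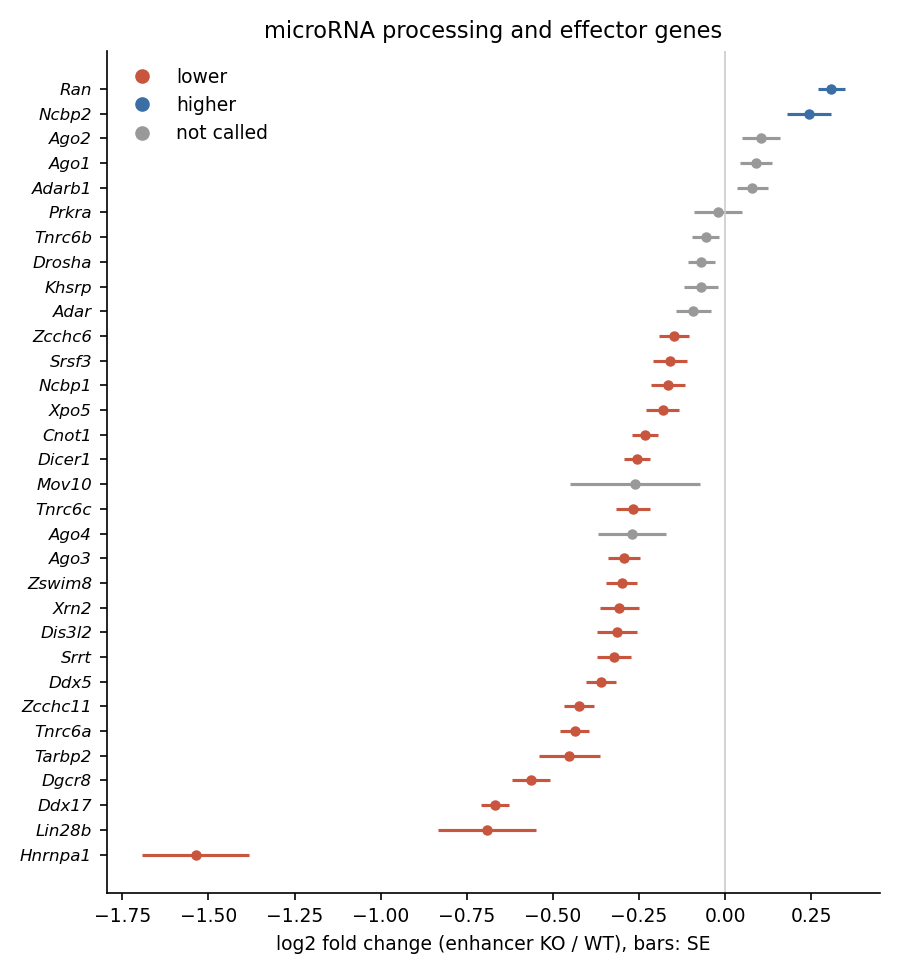
Log2 fold change (enhancer KO over WT, bars SE) of the 32 tested genes of microRNA processing and function, red where the gene fell, blue where it rose and grey where it did not pass. Hnrnpa1 lies at -1.54, Lin28b and Ddx17 near -0.69 and -0.67, and Ran and Ncbp2 are the blue points right of 0.

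At the edge of the choice of members, Mir3072 and Mir1955 had 62 reads and Mir6402 had 61, and the rows just outside, Mir539, Mir344 and Mir421, had 59 each. Mir421 held 22, 11 and 14 reads in WT and 3, 3 and 6 in enhancer KO. Of the strand-specific reads of the hairpin rows, 3.38% to 8.21% per library were on the other strand.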

How the data were processed

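Trimmomatic and STAR were the authors' trimming and alignment tools and mm10 their genome, per the submitters' processing notes; their versions, settings and annotation were not stated in these sources. The files deposited by the authors hold raw counts per gene and library, for reads that align to 1 place. Column 4, the strand that holds most reads, was used, and the 4 rows that name no gene, 1 of them the reads outside annotated exons, were kept out of library sizes.

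Counts were filtered by filterByExpr, scaled by TMM and tested with edgeR 4.0.16 (R 4.3.3; quasi-likelihood, robust, two-sided) over 15846 genes with Benjamini-Hochberg adjustment and a threshold of 0.05. CPM are relative to TMM-scaled gene reads, a log2 fold change is that of enhancer KO relative to WT, and its SE comes from the F statistic. Sums and ratios went through an exact permutation test over libraries (scipy 1.17.1). On simulated counts for 15846 genes the edgeR fit called 87% of genes changed 2-fold, 78% of those changed 1.5-fold and 0.0703% of unchanged ones. The changed genes, 100 of each size, were drawn from genes of all levels and were far fewer than those called in the data. These shares therefore do not give the power or error of the test for rows with as few reads as the members. Alternatives were limma 3.58.1, DESeq2 1.42.0, other scalings, filters, columns, thresholds and read minimums, a replicate block, and fits without libraries.

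Positions come from RefSeq, or from GENCODE where no RefSeq hairpin was found, and contexts from GENCODE mouse release 21. Both are on GRCm38, the assembly of mm10. The members and lists were chosen with earlier results of these data known. Named by rule are the 12 members with the most reads, up to 10 called with the smallest adjusted p and no overlap, those at the edge of the read minimum, those in noncoding hosts and those on a list of brain and retina microRNAs. Mir744, Mir338, Mir3093, Mir3061, rows named as not called, not tested or losing their call, and the examples among noncoding hosts and pathway genes were chosen after their values were seen, as was the split of exons. Lists are described by counts and medians, without a test of the list.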

Additional observations from a re-analysis of the deposited data

How the results depend on the processing

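The count of members called lower was 41 to 61 under the alternatives other than those given here (61 where a minimum of 30 reads gave 148 members), and without single libraries it was 42 to 54, with medians from -1.54 to -1.40. It was 25, with a median of -1.33, for the 43 members with at least 120 reads, and 1, with a median of -0.10 (-0.0982) and 19 called higher, with reads outside annotated exons as the library size, a scale on which the median of all genes is 1.36. The count called higher was 1 with library size alone, without a low-count filter, with the replicate block, in DESeq2, in the unstranded column, without both WT replicates 2 and 3 and at a threshold of 0.1, and 0 to 1 without single libraries. Processing genes called fell to 6 with a minimum fold of 1.2.

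With reads outside annotated exons as the library size, Atoh7 was at -0.05 (-0.0543). These were positive on that scale: Mir99ahg 0.41, Mir1894 0.76, Mir568 1.24, Mir3064 0.40, Mir134 0.29, Mir382 0.26, Mir212 1.31, Mir668 0.05 (0.0472), Mir99b 0.08 (0.0813), Mir181b-1 0.74, Mir124a-2 0.92 and Mir99a 0.16. The summed reads per reads outside exons (log2 ratio) turned to 0.10 (0.0968) without Mir6236 and 0.42 for hairpin rows alone. Without both WT replicates 2 and 3, Mir22hg was at -0.05 (-0.0462), Mir6240 at 0.24 and Mir212 at 0.07 (0.0686), and with library size alone Mir212 was at 0.01 (0.0144). Without single libraries, Mir22hg ranged from -0.01 (-0.0126) to 0.07 (0.0661), Mir9-2 from -0.14 to 0.18, Mir568 from -0.35 to 0.07 (0.0696), Mir212 from -0.38 to 0.17 and Mir124a-2 from -0.63 to 0.01 (0.0141). None of these 5 was called with all libraries. Apart from the change of denominator, the cause of these changes was not tested.

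The replicate numbers do not pair the libraries: deviations of same-numbered libraries correlated at 0.05 (0.0526), -0.04 (-0.0386) and -0.08 (-0.0795). With the replicate block 49 members were called lower and 1 higher. Mir6236 and Mir6240 have no DESeq2 value, Mir136 none in the unstranded column, and Mir9-3 and Mir3072 none under the first filter. Most hairpin rows hold under 200 reads over the 6 libraries, which limits their precision; 10 of the 11 calls that a single library could end were in such rows.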

Other observations

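Together the 546 microRNA rows with 1 to 59 reads held 1784, 1031 and 1651 reads in WT and 778, 669 and 853 in enhancer KO, a mean sum 60.4% lower relative to gene reads (n = 3; exact two-sided permutation p = 0.1) and 74.9 ± 21.5 against 72.5 ± 5.38 per 1000000 reads outside annotated exons (SD, n = 3; p = 0.9 in the same exact test). The mean CPM was lower in enhancer KO for 441 of the 546. The stranded columns held 6766 reads on the strand of these rows and 12215 on the other strand, while the hairpin rows with more reads held 11796 and 654.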
